A study of Mus musculus with 6 samples.

Results

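The 7 messenger RNAs described here are encoded by the mitochondrial genome and were counted in crypt epithelial cells of the mouse small intestine. They are mt-Nd1, mt-Nd2, mt-Nd4, mt-Nd5 and mt-Nd6, which encode core subunits of respiratory complex I, mt-Cytb, which encodes cytochrome b of complex III, and mt-Co1, which encodes the catalytic subunit of complex IV. They were found by gene symbol and make up 7 of the 28564 gene entries of the count table, and all 7 passed the filter on low counts. They are 7 of the 13 annotated protein-coding genes of the mitochondrial genome. The others, mt-Co2, mt-Co3, mt-Atp6, mt-Atp8, mt-Nd3 and mt-Nd4l, held almost no counts or were not analysed here.

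RNA sequencing was done on cells from male mice aged 13 weeks, in 3 wild-type (C57Bl/6) and 3 Apln-/- libraries, which the labels call biological replicates. Libraries are numbered as in the sample titles, so knockout libraries 1, 2 and 3 are the table columns named KO1, KO3 and KO4. Apln encodes the secreted peptide apelin, and the comparison asks how crypt epithelium differs in its absence. The labels name no tissue-specific driver for the knockout. Its strain background and the deleted part of the gene were not given in the sources used here. Cells were released with Liberase TL and sorted as live singlets positive for EpCAM and CD44 and negative for CD31 and CD45, and the RNA was amplified before library preparation.

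The mitochondrial genome is a small circle whose strands, called heavy and light, are each transcribed as long precursors. Transfer RNAs lie between most of the genes, and cutting them out releases the messenger and ribosomal RNAs, so genes of one precursor start from the same transcription event and differ afterwards in stability. Of the 13 messenger RNAs, 12 come from one precursor, and mt-Nd6 alone comes from the other. The ribosomal RNAs mt-Rnr1 and mt-Rnr2 lie at the start of the precursor that holds the 12 messenger RNAs, and they build the mitochondrial ribosome. Crypt stem cells and the Paneth cells beside them are known to rely on mitochondrial respiration to different degrees.

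The libraries held 23046880 to 26513481 counts. Apln was counted 29, 7 and 5 times in the wild-type libraries and 0 times in each knockout library, where a count of 0 allows up to 3. All 11 crypt epithelium markers looked for, among them Epcam, Cdh1, Lgr5 and Olfm4, had counts in every library. Mki67, a proliferation gene, was at 354 ± 45.9 CPM in wild type and 201 ± 32.8 in knockout, and Lyz1, a lysozyme of Paneth cells, at 467 ± 107 and 1067 ± 476 (SD, n = 3 each), with groups apart in both and adjusted p of 0.0628 and 0.0924 in edgeR; their part in the results below was not tested. Endothelial markers summed to 0.283 to 1.43 CPM in wild type and 0.0922 to 0.937 CPM in knockout over 4 genes. Blood-derived cell markers summed to 16.0 to 27.4 and 16.0 to 21.0 CPM over 5 genes. Stromal and muscle markers summed to 1.23 to 16.5 and 5.39 to 25.3 CPM over 7 genes, and no marker was at 0 in all libraries, although the endothelial gene Cdh5 had 1 count in all. Since the sample is bulk RNA, fewer cells of a type and less RNA per cell cannot be told apart. Knockout library 2 stood apart in the muscle genes Myh11, Acta2 and Des, with 433 counts against 16 to 49 in each of the other libraries. Its raw counts of the crypt markers Lgr5 (556), Olfm4 (12140), Cd44 (1112), Ascl2 (128) and Krt18 (2243) were the lowest of all libraries. Those of Epcam, Cdh1, Krt8, Vil1, Mki67 and Lyz1 were not. This library also had the highest CPM of each of the 7 mRNAs. Log2 fold changes and shares of the members are therefore also given without it. The part of muscle RNA or of these crypt markers in them was not tested.

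Before the values, the sequences show which of these transcripts share exact stretches with annotated nuclear transcripts. Nuclear copies outside annotated transcripts were not searched. Copies of mitochondrial DNA lie in nuclear chromosomes, and in the mouse a long and almost perfect copy is annotated as a row of pseudogenes on chromosome 1 (mm10, positions 24611535 to 24616197, minus strand). It holds 7 entries, Gm29216, Gm28661, Gm10925, Gm28437, Gm28438, Gm10222 and Gm28439, in the order of mt-Co1, mt-Co2, mt-Atp6, mt-Co3, mt-Nd3, mt-Nd4l and mt-Nd4. Of these, 5 matched their mitochondrial counterpart at every base. The first 60 bases of mt-Co3 are shown against Gm28437, because this gene was counted only 1 time in all 6 libraries. No base is in capitals, since the sequences do not differ:
mt-Co3 (mm10, chrM:8607-8666, plus strand): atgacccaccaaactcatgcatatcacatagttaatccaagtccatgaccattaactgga
Gm28437 (mm10, chr1:24613912-24613971, minus strand): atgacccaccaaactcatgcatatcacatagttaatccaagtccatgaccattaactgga

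The copy begins inside mt-Co1. The stretch below starts at base 1054 of mt-Co1, counted from 1 at its first base, and is shown because it holds the only differences between mt-Co1 and Gm29216, in capitals. There are 6 of them in 492 aligned bases, T1056A, C1057T, A1059G, A1060G, C1062A and A1066T, with the base of mt-Co1 first and that of the copy last. After them the sequences are the same to the end of the gene:
mt-Co1 (mm10, chrM:6381-6440, plus strand): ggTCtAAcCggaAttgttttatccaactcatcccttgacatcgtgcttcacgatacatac
Gm29216 (mm10, chr1:24616138-24616197, minus strand): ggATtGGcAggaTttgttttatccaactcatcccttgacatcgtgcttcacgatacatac

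Windows of 50 bases were then slid along each mitochondrial mRNA and looked for, letter by letter and on both strands, in all annotated nuclear transcripts. No window of mt-Nd1, mt-Nd6 or mt-Cytb was found there. Of the windows of mt-Nd2, 8.19% had a copy, and of mt-Nd5 7.61%. The share was 51.1% for mt-Co1, which also matches Gm13340 on chromosome 2 in places, and 62.2% for mt-Nd4, whose first 876 bases are those of Gm28439. It was 98.0% to 100.0% for mt-Co2, mt-Co3, mt-Atp6, mt-Nd3 and mt-Nd4l. For mt-Atp8 it was 0.0%, but most of its place falls between annotated pseudogenes. Gm10925 and Gm28661 are 233 bases apart, as are the matching ends of mt-Atp6 and mt-Co2. Gm10925 begins with mt-Atp6 (chrM:7927), inside mt-Atp8 (chrM:7766-7969), and covers only an end of it that is shorter than a window.

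The counts followed this split, apart from mt-Atp8, which has no copied window and was not analysed here. The 7 mRNAs held 11923 (mt-Nd6) to 1374803 (mt-Co1) counts over the 6 libraries. In contrast, mt-Nd3 had 36 and mt-Co3 had 1, at or under 7 counts per library. The 7 entries on chromosome 1 had 5 to 61 counts each and 204 together, so these reads were not counted there either. The treatment of reads that match several places was not given in the sources used here. Levels of mt-Co1 and mt-Nd4 are therefore uncertain, since most of their bases lie in copied windows of 50 bases (1157 of 1545 and 876 of 1378). With windows of 100 bases, 30.8% were copied for mt-Co1 and 60.8% for mt-Nd4, so the shared part depends on the window length. The copies' part in any comparison below was not tested.

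**Figure D1:**
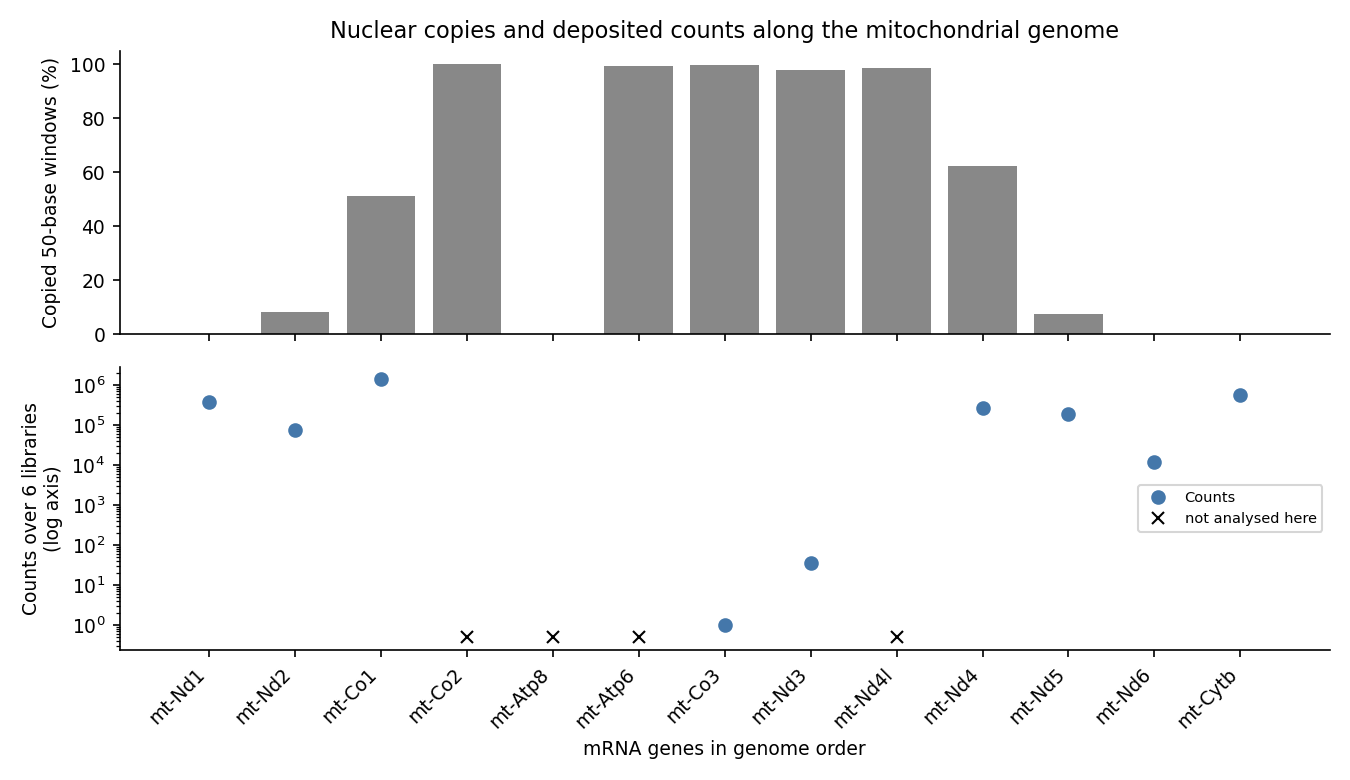
The upper panel gives, for the 13 mitochondrial mRNA genes in genome order, the percent of 50-base windows with an exact copy in an annotated nuclear transcript; the lower panel gives the counts over 6 libraries on a log axis, with a cross for genes not analysed here. The 5 genes with 98.0% or more of their windows copied have at most 36 counts or none analysed, and the 7 mRNAs with 62.2% or less have 11923 or more; mt-Atp8, with 0.0% copied, stands outside this split and was not analysed here.

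The ends of the 7 mRNAs are shown because genes of this genome abut or overlap, which matters for counting. Capitals mark the last codon, or what is left of it. For mt-Nd4 and mt-Cytb the gene ends after a single T of the stop codon, which the poly(A) tail is known to complete:
mt-Nd1 (mm10, chrM:3684-3707, plus strand): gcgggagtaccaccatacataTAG
mt-Nd2 (mm10, chrM:4928-4951, plus strand): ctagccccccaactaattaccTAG
mt-Co1 (mm10, chrM:6849-6872, plus strand): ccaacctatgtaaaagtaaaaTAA
mt-Nd4 (mm10, chrM:11521-11544, plus strand): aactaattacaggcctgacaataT
mt-Nd5 (mm10, chrM:13542-13565, plus strand): ttatactcaattaatctcgagTAA
mt-Nd6 (mm10, chrM:13552-13575, minus strand): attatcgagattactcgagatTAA
mt-Cytb (mm10, chrM:15265-15288, plus strand): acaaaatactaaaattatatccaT

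mt-Nd5 and mt-Nd6 face each other on opposite strands and share their last 14 bases, in capitals below:
mt-Nd5 (mm10, chrM:13526-13565, plus strand): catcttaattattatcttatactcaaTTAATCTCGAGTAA
mt-Nd6 (mm10, chrM:13552-13591, minus strand): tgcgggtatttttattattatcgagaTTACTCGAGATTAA

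All of mt-Nd6 (chrM:13552-14070) is also crossed by the precursor of the other strand. The strand setting of the counting was not given in the sources used here, so counts of mt-Nd6 cannot be told apart from antisense reads. The 7 mRNAs were 519 (mt-Nd6) to 1824 (mt-Nd5) bases long with 34.1% to 39.9% G and C.

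Levels are first compared between genes per kilobase of gene, as TMM-scaled CPM, which are counts divided by an effective library size that edgeR's TMM method computes and set to a common total. mt-Co1 was highest of the 7, at 5402 ± 681 CPM per kilobase in wild type and 6669 ± 834 in knockout (SD, n = 3 each, here and below). Next came mt-Cytb at 2478 ± 239 and 4475 ± 1112, and mt-Nd1 at 2194 ± 414 and 3302 ± 972. mt-Nd4 was at 1198 ± 173 and 1465 ± 436, mt-Nd5 at 571 ± 64.0 and 843 ± 255, and mt-Nd2 at 414 ± 31.9 and 591 ± 257. mt-Nd6, the mRNA of the light strand, was lowest at 133 ± 25.4 and 182 ± 48.0. Each neighbouring pair stood in this order in 6 of 6 libraries, although the group means of mt-Cytb and mt-Nd1 in wild type differed by less than the SD of mt-Nd1. Per kilobase outside copied windows of 50 bases, mt-Co1 was at 24034 CPM over all libraries. On that scale mt-Cytb was at 3476 and mt-Nd4 at 3654, so the order of mt-Nd4 depends on how copied bases were counted. Fewer windows of mt-Co1 were copied at 100 bases, so its value here depends on the window length. The ribosomal RNAs were far above all of them, at 273081 (mt-Rnr2) and 148485 (mt-Rnr1) CPM per kilobase over the 6 libraries.

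In Apln knockout crypt cells, mt-Cytb was the member that differed most from wild type. It was at 3129, 2787 and 2589 CPM in wild-type libraries 1, 2 and 3 and at 4975, 6457 and 3925 CPM in knockout libraries 1, 2 and 3. Every knockout library lay above every wild-type library. The fitted change was 1.81-fold (log2 fold change 0.85 ± 0.19, SE). In the quasi-likelihood test of edgeR the unadjusted p was 7.12e-04, and after Benjamini-Hochberg adjustment over 15122 genes it was 0.0797. It thus did not pass the threshold of 0.05. Without knockout library 2 its log2 fold change was 0.65 with an adjusted p of 0.163. Library totals without TMM gave 0.48, with an adjusted p of 0.110.

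Of the 7 members, 0 passed edgeR's test in either direction and 0 passed limma-voom. DESeq2's Wald test called 1, mt-Cytb, higher in knockout, against 2.57% of the 10288 genes to which it gave an adjusted p. With the replicate number as a block edgeR also called mt-Cytb, against 0.78% of all genes, and with no filter it called mt-Cytb and mt-Nd1, against 1.15%. In the fit described, 0.172% of all genes tested passed in either direction and 0.112% were higher in knockout. At an unadjusted p under 0.05 there were 4 members, all higher in knockout (mt-Cytb, mt-Nd5, mt-Nd1 and mt-Nd6), against 7.53% of all genes (15.2% in either direction). Groups did not overlap for 1 of the 7, against 11.3% of all genes higher in knockout and 20.9% in either direction. The median log2 fold change of the members was 0.51, and that of all genes tested was -0.0062. All 7 were above 0, as were 49.5% of all genes tested. The members are not independent of one another, since they come from shared precursors and shared libraries.

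The complex I mRNAs had values that overlapped between the groups. mt-Nd1 was at 2454, 2173 and 1671 CPM in wild type and 3139, 4100.0 and 2240.4 in knockout, a log2 fold change of 0.59 ± 0.22 (adjusted p = 0.238). mt-Nd5, which encodes a proton-pumping subunit, was at 1146, 1062 and 915 CPM in wild type and 1457, 2037 and 1118 in knockout, a log2 fold change of 0.56 ± 0.21 (adjusted p = 0.231). In both, knockout library 3 fell within the wild-type range and knockout library 2 was the highest. Without that library the log2 fold changes were 0.36 for mt-Nd1 and 0.31 for mt-Nd5 (adjusted p = 0.533 in both).

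mt-Nd2, also a subunit of the pumping arm, was at 452, 446 and 392 CPM in wild type and 544, 908 and 387 in knockout. Knockout library 3 was the lowest of all and library 2 was 2.35 times as high as it. Its log2 fold change was 0.51 ± 0.25 (adjusted p = 0.362), and 0.12 without knockout library 2. mt-Nd4, another pumping subunit, was at 1832, 1740.1 and 1381 CPM in wild type and 1855, 2684 and 1516 in knockout, a log2 fold change of 0.29 ± 0.21 (adjusted p = 0.561). It was 0.034 without knockout library 2, 0.18 without wild-type library 3 and 0.46 without knockout library 3. mt-Nd6, encoded on the light strand, was at 80.9, 71.2 and 54.8 CPM in wild type and 95.1, 119 and 69.0 in knockout (log2 fold change 0.45 ± 0.21, adjusted p = 0.326). Without knockout library 2 its log2 fold change was 0.25, and its unadjusted p in edgeR went from 0.0489 to 0.243. The complex IV mRNA mt-Co1 was at 9107, 8787 and 7145 CPM in wild type and 10780.4, 11287 and 8845 in knockout, a log2 fold change of 0.30 ± 0.17 (adjusted p = 0.422), or 0.24 without knockout library 2. Its spread was the smallest in knockout, a coefficient of variation of 12.5% against 24.9% to 43.6% for the other members.

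**Figure D2:**
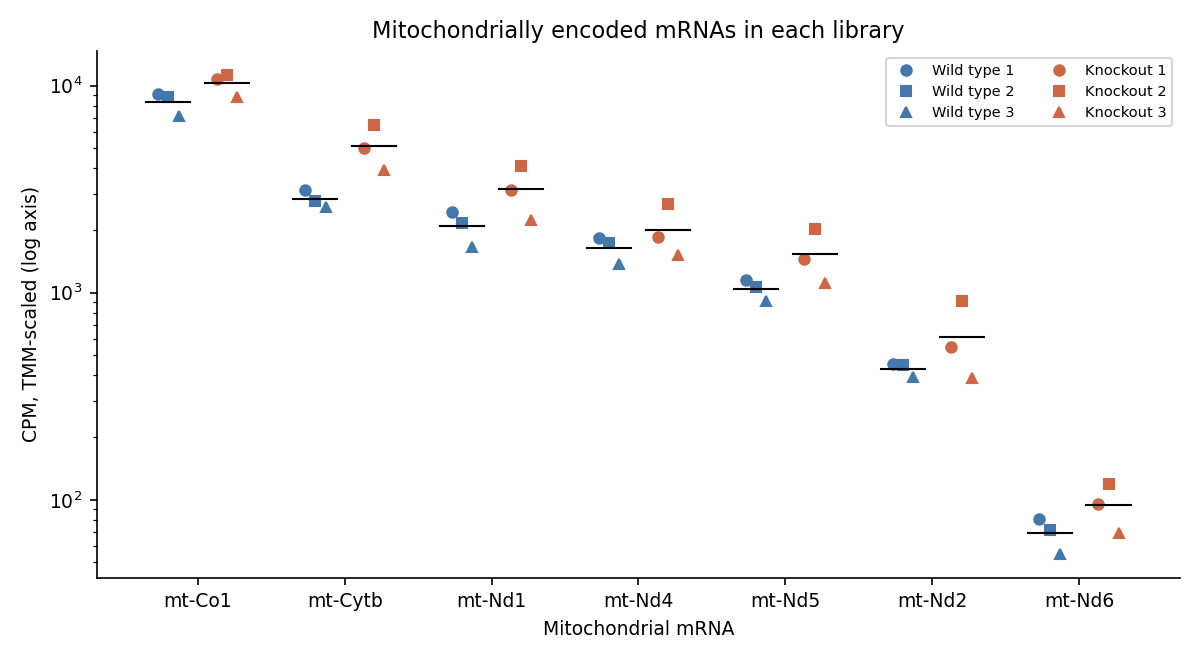
TMM-scaled CPM on a log axis of the 7 mRNAs in each library, ordered by level per kilobase; blue marks are wild type, orange marks knockout, the marker shape gives the library number and the bar the group mean. Knockout library 2 is the highest for all 7 mRNAs, and the groups are apart only for mt-Cytb (2589 to 3129 CPM in wild type, 3925 to 6457 in knockout).

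The members moved together from library to library. Over the 6 libraries, Pearson's r of log2 CPM between pairs of members ran from 0.79 (mt-Nd4 with mt-Cytb) to 0.99 (mt-Nd1 with mt-Nd6), as a description over points that share library and scaling. The closest pair thus joined genes annotated on opposite strands. Counts of mt-Nd6 cannot be told apart from antisense reads, so whether RNAs of both strands moved together was not tested. Among 4710 named nuclear genes of at least 10 CPM, the pattern over the 6 libraries most like the members' mean was that of Atp6v1a (r = 0.995), Magt1 (0.986), Sub1 (0.985), Magoh (0.980) and Slc39a10 (0.974). These genes were picked for the highest r over 6 points, so high values follow from the choice and are no test. Their own log2 fold changes were 0.13 to 0.43, against a median of 0.51 for the members.

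As a denominator for the members, the ribosomal RNAs of the same genome do not depend on nuclear genes. Their own fold changes depend on the scaling between libraries. With library totals, mt-Rnr1 and mt-Rnr2 had log2 fold changes of 0.15 and 0.23 (adjusted p = 0.520 and 0.290 in edgeR). Under TMM, mt-Rnr1 and mt-Rnr2 had log2 fold changes of 0.52 ± 0.17 and 0.59 ± 0.17 (adjusted p = 0.175 and 0.140), so neither passed edgeR's test. Neither passed limma-voom (0.129 and 0.0996), and both passed DESeq2's Wald test (0.0258 and 0.0101). With the replicate number as a block in edgeR, mt-Rnr2 passed (0.0372) and mt-Rnr1 did not (0.0668). Together they took 46.9% to 57.5% of all counts in wild type and 58.7% to 61.9% in knockout. All knockout libraries were above all wild-type libraries (52.2% ± 5.29 and 60.2% ± 1.60), and the exact permutation test (two-sided) gave p = 0.1, which is the least 3 against 3 can reach. The 7 mRNAs took 1.88%, 2.04% and 1.69% of all counts in wild type and 1.92%, 2.41% and 1.66% in knockout. These overlapped, at 1.87% ± 0.172 and 2.00% ± 0.381 (exact permutation p = 0.7), and the difference of 0.128 percentage points became -0.0789 without knockout library 2.

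Per 100 mt-rRNA counts, the members had 3.28, 3.91 and 3.61 counts in wild type and 3.20, 3.90 and 2.84 in knockout. The groups overlapped (3.60 ± 0.318 and 3.31 ± 0.542, exact permutation p = 0.4), and their difference of -0.287 was -0.582 without knockout library 2. Knockout libraries 1 and 3 were below every wild-type library on this measure, and knockout library 2 was inside their range. As a share of counts outside the 5 most abundant entries (both mt-rRNAs and the nuclear entries Gm42418, CT010467.1 and Gm23935), the members had 7.61%, 6.94% and 5.90% in wild type and 9.10%, 10.6% and 7.46% in knockout. Here the means were 6.82% ± 0.862 and 9.07% ± 1.60 (exact permutation p = 0.2), and 1 knockout library lay below 1 wild-type library. The difference of 2.25 percentage points was 1.46 without knockout library 2. The ratio of mt-Rnr2 to mt-Rnr1 counts was 2.95 ± 0.134 and 3.11 ± 0.0947 (exact permutation p = 0.2). Adjusted over the 7 summed measures, the lowest p was 0.467.

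**Figure D3:**
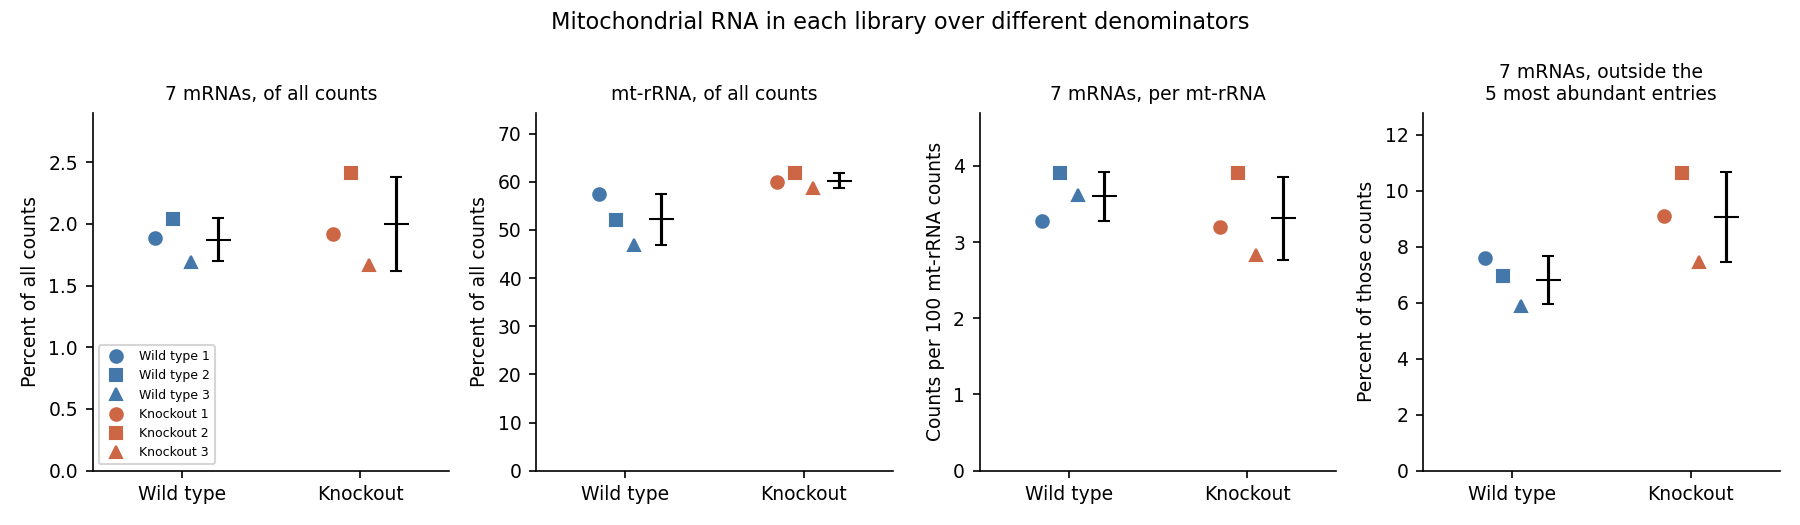
Each panel plots the 6 libraries (blue wild type, orange knockout, shapes as library numbers) with the group mean and SD as a bar; the y axes start at 0 and give percent of all counts, counts per 100 mt-rRNA counts, or percent of counts outside the 5 most abundant entries. The mt-rRNA share is apart between the groups (46.9% to 57.5% against 58.7% to 61.9%), while the 3 measures of the mRNAs overlap.

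The sign of the members' difference depended on the denominator. The median log2 fold change of 0.51 under TMM was 0.13 with library totals, -0.10 with mt-rRNA counts as the library size, 0.14 once each library's trends with transcript length and GC content were removed, and 0.25 without knockout library 2. The median of all genes tested moved as well, to -0.38 with library totals and -0.60 with mt-rRNA counts. Relative to it the members' median was 0.52 under TMM, 0.51 with library totals and 0.51 with mt-rRNA counts, but 0.17 with the length and GC trends removed and 0.27 without knockout library 2. mt-Cytb was above 0 in each of these fits, from 0.26 with mt-rRNA counts to 0.85 under TMM. mt-Co1 was at -0.29 and mt-Nd4 at -0.30 per mt-rRNA count, with adjusted p of 0.227 and 0.311 in that edgeR fit. There mt-Nd2, mt-Nd5 and mt-Nd6 were at -0.096, -0.034 and -0.13, and mt-Nd1 at 0.0044. The counts left outside the 5 most abundant entries ran from 6037237 to 7616648 in wild type and from 5144725 to 5623112 in knockout.

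**Figure D4:**
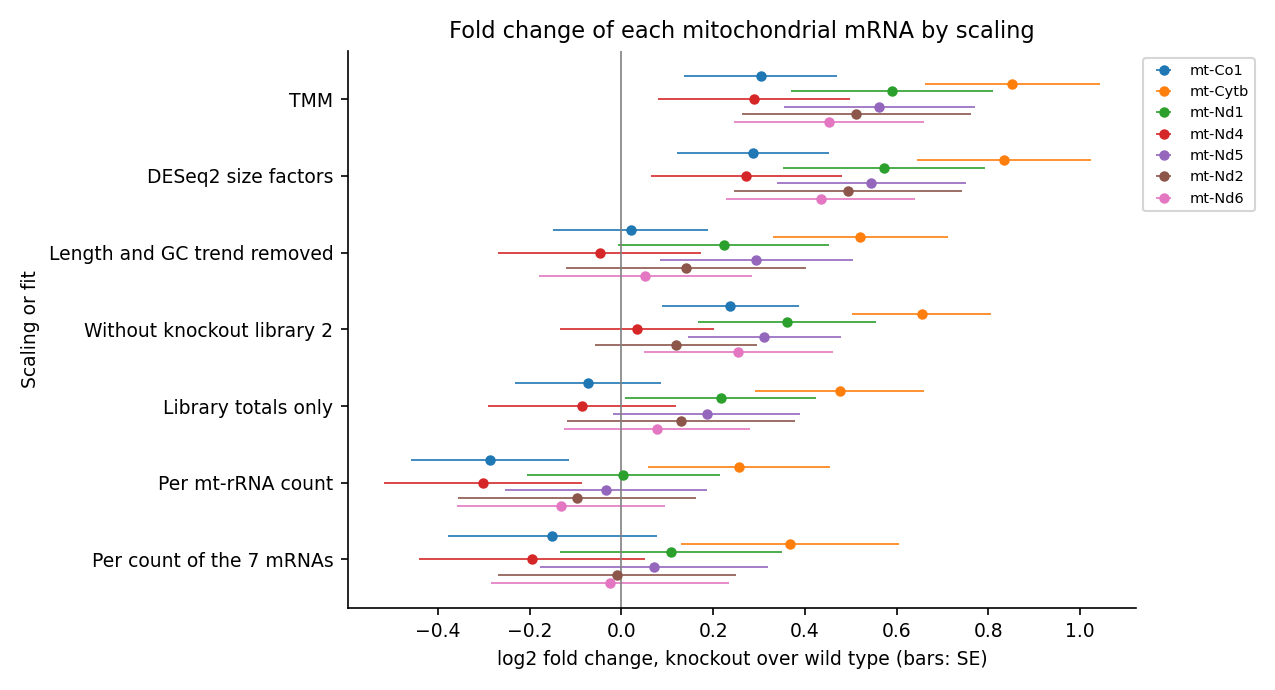
Log2 fold changes (knockout over wild type) with their SE for the 7 mRNAs, in 7 fits that differ in scaling, trend removal or libraries. All points lie above 0 under TMM (0.29 to 0.85), and mt-Cytb is the highest of the 7 in every row. With library totals, per mt-rRNA count and per count of the 7 mRNAs, mt-Co1 and mt-Nd4 lie below 0. mt-Nd4 also does so with length and GC trends removed. Below 0 are also mt-Nd2 and mt-Nd6 per mt-rRNA count and per count of the 7 mRNAs, and mt-Nd5 per mt-rRNA count. Per count of the 7 mRNAs, not all points can lie above 0, since their sum is the library size.

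The make-up of the pool of the 7 mRNAs needs no scaling between libraries. mt-Cytb took 17.2%, 16.3% and 18.3% of it in wild type and 21.8%, 23.4% and 21.7% in knockout, so the groups were apart by more than their spread (17.3% ± 0.987 and 22.3% ± 0.966). mt-Co1 took 50.04%, 51.5% and 50.5% in wild type and 47.2%, 40.9% and 48.9% in knockout, all knockout libraries lying below. mt-Nd4 took 10.1%, 10.2% and 9.76% in wild type and 8.12%, 9.73% and 8.38% in knockout, again without overlap but with knockout library 2 only just below wild-type library 3. For each of these 3 shares the exact permutation p (two-sided) was 0.1, the smallest possible, and 0.233 adjusted over the 7 shares, which are linked because they sum to the whole. Without knockout library 2, an alternative added for these shares after seeing the data, the knockout means were 21.7% for mt-Cytb, 48.0% for mt-Co1 and 8.25% for mt-Nd4, so the difference of mt-Co1 from wild type went from -5.02 to -2.65 percentage points.

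The other shares overlapped. mt-Nd1 had 12.7% ± 0.837 and 13.7% ± 1.24, mt-Nd5 6.33% ± 0.126 and 6.65% ± 0.646, mt-Nd2 2.62% ± 0.144 and 2.604% ± 0.607, and mt-Nd6 0.416% ± 0.0286 and 0.409% ± 0.0255. The 5 complex I mRNAs together took 32.0% ± 0.796 and 32.1% ± 3.24 (exact permutation p = 1.0), with close means and a larger SD in knockout; without knockout library 2 the knockout mean was 30.2%. Without that library the means of mt-Nd1, mt-Nd5, mt-Nd2 and mt-Nd6 were 13.1%, 6.28%, 2.26% and 0.399%, and that of mt-Nd5 then lay below wild type. The mean share was lower in knockout for 4 members, and 2 of these, mt-Co1 and mt-Nd4, had groups that did not overlap; they are the members with the most copied sequence. Between members with no copied window, mt-Cytb had 128, 128 and 155 counts per 100 mt-Nd1 counts in wild type and 159, 157 and 175 in knockout, groups that did not overlap (137 ± 15.6 and 164 ± 9.94, exact permutation p = 0.1); this ratio was chosen after its values were seen. Wilson intervals at 95% for any of these shares in one library were at most 0.158 percentage points to either side, and they cover counting error only.

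**Figure D5:**
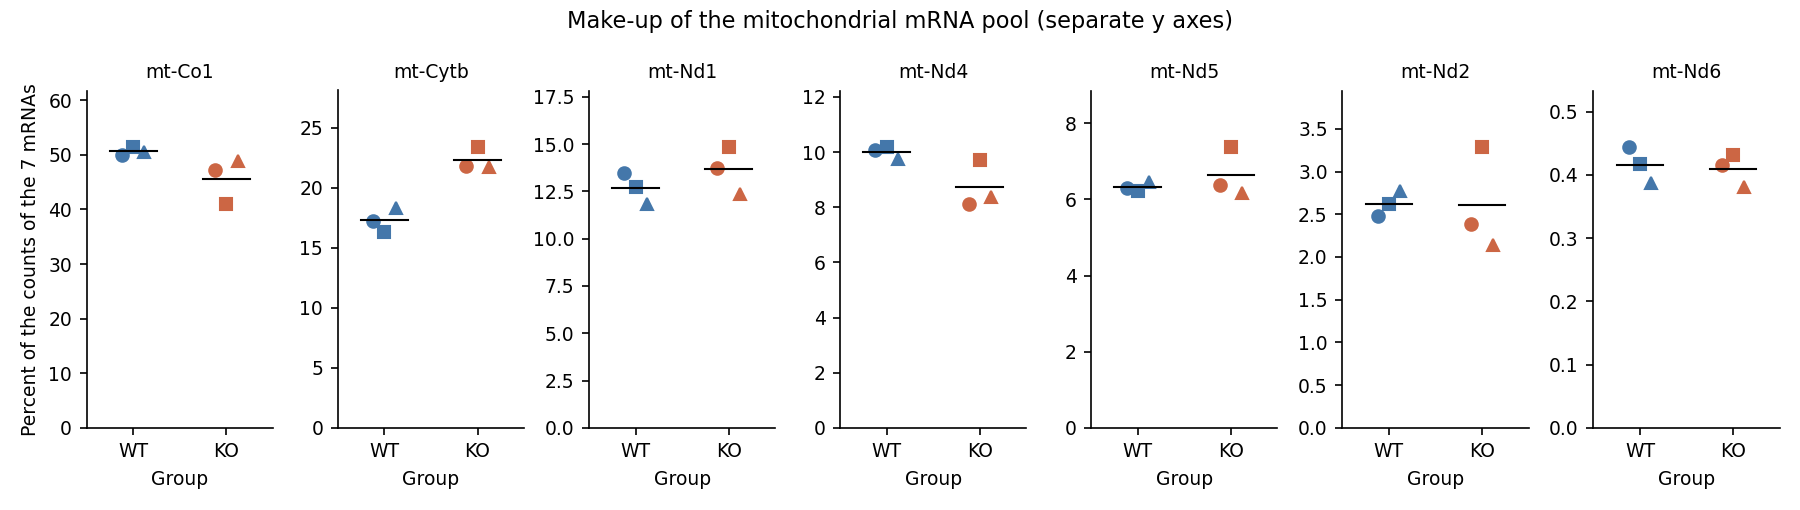
Percent of the counts of the 7 mRNAs taken by each of them, per library (WT, wild type; KO, knockout; shapes as library numbers; bar, group mean; each panel has its own y axis from 0). The share of mt-Cytb is higher in all 3 knockout libraries (21.7% to 23.4%, against 16.3% to 18.3%), and those of mt-Co1 and mt-Nd4 are lower.

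Nuclear genes that make and use these RNAs were read from fixed lists, with edgeR's test over all genes. At an unadjusted p under 0.05 that test had 7.53% of all genes higher in knockout and 15.2% in either direction. Of 8 tested genes that transcribe the mitochondrial genome, 0 passed and 0 had an unadjusted p under 0.05, with 0 called by DESeq2 or limma-voom. Tfam, the factor that packs the genome and starts transcription, was at 14.6 ± 2.25 and 19.1 ± 4.47 CPM (adjusted p = 0.405). Mterf4 was at 2.44 ± 0.806 and 3.79 ± 0.751 CPM, and Tfb2m, which opens the promoter with the polymerase, at 10.96 ± 2.39 and 9.19 ± 1.34. Of 11 genes for replication and maintenance of the genome, 0 passed with any of the 3 tools and 0 had an unadjusted p under 0.05; the polymerase gene Polg was at 8.16 ± 1.88 and 7.09 ± 1.03 CPM.

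Of 28 genes for processing and stability of mitochondrial RNA, 0 passed with any of the 3 tools, and 2 were higher and 3 lower at an unadjusted p under 0.05 (median log2 fold change 0.04). Fastkd2, which binds mt-Rnr2 and is needed for assembly of the large mitochondrial ribosomal subunit, was at 6.27 ± 0.119 and 10.5 ± 1.52 CPM without overlap (adjusted p = 0.132). Ptcd3, a protein of the small mitochondrial ribosomal subunit, was at 22.95 ± 2.58 and 17.2 ± 1.99 CPM without overlap (adjusted p = 0.271), and Tbrg4 at 29.9 ± 4.39 and 22.3 ± 3.67. Of 17 translation factors, 0 passed edgeR's test or limma-voom, 1 passed DESeq2's, and 4 were higher at an unadjusted p under 0.05. Coa3 and Cox14, which bind newly made mt-Co1 protein, were at 8.60 ± 2.93 and 16.3 ± 2.23 CPM and at 5.71 ± 1.98 and 9.22 ± 0.672 CPM, with groups apart in both (adjusted p = 0.116 and 0.240).

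Under TMM, the only scaling in which list medians were taken, the nuclear partners of the same complexes had medians near that of the members. The members' own median was 0.14 with length and GC trends removed. In the TMM fit 7.53% of all genes tested were higher at an unadjusted p under 0.05. DESeq2's Wald test called 551 of 10288 genes with an adjusted p, in either direction. For 7 core subunits of complex I the median log2 fold change was 0.52, with 0 passing edgeR's test or limma-voom, 3 passing DESeq2's and 4 higher at an unadjusted p under 0.05. Ndufv2, of the part that takes electrons from NADH, was at 16.5 ± 1.32 and 25.6 ± 4.22 CPM (adjusted p = 0.122). For 9 subunits of complex III the median was 0.51, with 0, 0 and 2 passing edgeR, limma-voom and DESeq2 and 5 higher at an unadjusted p under 0.05, led by Uqcrh (44.0 ± 5.34 and 69.2 ± 10.8 CPM). For 10 subunits of complex IV the median was 0.41, with 0, 0 and 1 passing and 5 higher at an unadjusted p under 0.05, led by Cox4i1 (70.5 ± 23.8 and 127 ± 7.72 CPM). Of 8 regulators of mitochondrial biogenesis, 0 passed with any of the 3 tools and 1, Pprc1, was lower at an unadjusted p under 0.05 (22.3 ± 3.06 and 16.2 ± 1.15 CPM); Ppargc1a was at 9.27 ± 1.48 and 11.2 ± 0.567 CPM.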

How the data were processed

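The deposited table holds raw counts per Ensembl gene, which the authors did not normalize. The submitters' processing notes name STAR 2.6.1, HTSeq and the mm10 build; the annotation release was not given in the sources used here. RNA was amplified before library preparation, per the labels' protocols. Symbols, coordinates, lengths and sequences came from GENCODE of the same build, which matched 28551 of 28564 identifiers; 0 columns were without a sample. In R 4.3.3 with edgeR 4.0.16, filterByExpr (count minimum 10, total minimum 15) kept 15122 genes, libraries were scaled by TMM, and groups were compared by glmQLFit and glmQLFTest with no covariate; p-values were Benjamini-Hochberg adjusted at 0.05. Summed measures were compared with exact permutation tests. The edgeR fit was tested on simulated data. Libraries of one group differed by a chi-square per degree of freedom of 8.20 to 63.1 over genes, so none was counted as a repeat. P-values measure only the spread between these samples, since the labels do not say which animals each came from. The members and lists were chosen with earlier results of these data known. Named are all members, both mt-rRNAs, up to 3 genes of lowest p per list, and the 5 nuclear genes of most similar pattern. Alternatives were other scalings, filters, DESeq2 1.42.0, limma-voom (limma 3.58.1), the replicate number as a block, removal of length and GC trends (mgcv 1.9.3) and leaving out each library.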

Additional observations from a re-analysis of the deposited data

How the results depend on the processing

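Of the 7 members, 0 were called in the fit described and 2 with no filter (mt-Cytb and mt-Nd1, against 1.15% of all genes called higher). DESeq2's Wald test called 1 (mt-Cytb, against 2.57% of the 10288 genes with an adjusted p). The replicate number as a block gave 1 (mt-Cytb, adjusted p = 0.0302 in edgeR, against 0.78% of all genes). Same-numbered libraries had correlations of deviations of 0.0406, 0.0569 and 0.0109, and differently numbered ones of -0.0518 to 0.0169. Knockout library 3 correlated best with wild-type library 1 (0.0169), not with its own number. Values this small, over so few pairs, cannot decide whether same-numbered libraries were paired, and the labels do not say. The block and these correlations follow the numbers of the sample titles. By the column names, knockout library 2 (column KO3) would match wild-type library 3 instead. With all alternatives mt-Cytb had an adjusted p of 3.13e-04 to 0.361 and stayed above 0. With each library left out in turn 0 members were called. Among the genes of the pathway lists, 0 were called in the fit described, 6 with library totals, 16 with mt-rRNA counts as the library size, 9 with no filter, 9 with DESeq2, 2 with the replicate block, 2 with member counts as the library size, and 0 to 8 with 1 library left out (8 without wild-type library 3).

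The members' median of 0.51 was -0.10 with mt-rRNA counts as the library size, -0.00995 with member counts as the library size and 0.0631 with the replicate block and the length and GC trends removed together; the last 2 were added after seeing the data. It was 0.25 to 0.75 with 1 library left out. Single log2 fold changes changed sign as follows. With library totals mt-Nd4 was -0.0856 and mt-Co1 -0.0724. With mt-rRNA counts mt-Nd2 was -0.10, mt-Nd4 -0.30, mt-Nd5 -0.0340, mt-Nd6 -0.13, mt-Co1 -0.29 and mt-Rnr1 -0.0587. With member counts mt-Nd2 was -0.00995, mt-Nd4 -0.20, mt-Nd6 -0.0244 and mt-Co1 -0.15. That scaling holds the sum of the members fixed, so they cannot all lie above 0. The mt-rRNA counts as the library size hold the sum of mt-Rnr1 and mt-Rnr2 fixed in the same way. With the length and GC trends removed mt-Nd4 was -0.0473, and -0.0683 with the replicate block besides. The median of all genes tested was -0.0062 in the fit described. It was -0.38 with library totals, -0.60 with mt-rRNA counts, -0.45 with member counts and -0.033 with the length and GC trends removed. Beyond what the scalings fix, the cause of the sign changes was not tested. Over all genes tested, the fit described called 26 (17 higher, 9 lower). Library totals gave 1346 (18 higher, 1328 lower), mt-rRNA counts 3281 (7 and 3274), member counts 649 (3 and 646), no filter 629, a minimum of 1 CPM 117, DESeq2 551, limma-voom 56 and the replicate block 173. DESeq2's size factors, upper-quartile scaling, nuclear genes alone and the removal of length and GC trends each gave 1, the last with the block 24, and leaving out 1 library 0 to 358 (358 without wild-type library 3). The single call under those 3 scalings and that removal was lower in knockout.

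With 1 library left out, the difference in the member share of all counts ran from -0.0789 to 0.296 percentage points, that of the mt-Nd6 share from -0.0215 to 0.00709 and that of the complex I share from -1.81 to 1.31, so these have no stable direction. Differences in the mt-rRNA share (5.42 to 10.7 points), in member counts per 100 mt-rRNA counts (-0.582 to -0.0486), in the share outside the 5 most abundant entries (1.46 to 3.06) and in the mt-Rnr2 to mt-Rnr1 ratio (0.0895 to 0.221) kept their sign.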

Other observations

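Transfer RNA genes of the mitochondrial genome also appear among the gene entries. Of 22 annotated, 11 had counts in the table analysed and 6 were tested; these genes are 67 to 71 bases long. With edgeR's quasi-likelihood test 0 of 6 passed, and 1 had an unadjusted p under 0.05. That was mt-Tp, the light-strand gene that lies just past the end of mt-Cytb and mt-Tt. It was counted 153, 253 and 178 times in wild type and 323, 316 and 259 times in knockout, or 6.79 ± 1.67 and 13.97 ± 1.54 CPM (SD, n = 3 each) without overlap. Its log2 fold change in edgeR was 1.04 ± 0.22 (SE; adjusted p = 0.0681), and it was singled out after its value was seen. mt-Ty, also on the light strand and just before mt-Co1, had the most counts of the transfer RNA genes, at 17.1 ± 2.36 and 20.9 ± 4.27 CPM with overlap. mt-Tq was at 1.79 ± 0.981 and 3.32 ± 0.848 CPM with overlap. As for mt-Nd6, counts of mt-Tp, mt-Ty and mt-Tq, all on the light strand, cannot be told apart from antisense reads.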
